A study of Mus musculus with 12 samples.

Results

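The livers of male and female Apoe-/- mice that carry the aryl hydrocarbon receptor gene Ahr were compared by RNA-seq, gene by gene, over the autosomes. The comparison used 6 of the 12 libraries of the series, those labelled as Apoe-/- controls, with 3 males and 3 females. All 6 mice are labelled as null for Apoe, the gene of apolipoprotein E, which clears lipoprotein particles from the blood, and all had 12 weeks on a diet labelled HFD, so neither differs between the groups and neither has a comparison group here. Apoe still had 62.7 to 238 CPM of unscaled total in the 6 libraries, and counts of a whole gene do not show whether a part of it is disrupted. Age beyond the weeks on the diet is not given. The livers were taken after the mice had been flushed with PBS, RNA was extracted with a Micro RNeasy kit, and the labels state an average RIN of 7.0, where RIN is a score of RNA integrity. The other 6 libraries come from Apoe-/-AhR-/- mice, 3 males and 3 females on the same diet, here called Ahr-null, and serve only to set values beside those of the controls. Each library is 1 liver per the labels, and nothing says that the mice shared a litter or a cage, so p-values measure only the spread between these samples. Of the 27304 genes in the deposited count table, 25800 lie on chromosomes 1 to 19, and 12191 of those passed a filter on low counts and were tested.

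The liver is among the most sexually dimorphic tissues outside the reproductive organs. In rodents the pituitary releases growth hormone in separated pulses in males and more continuously in females. The hepatocyte reads this pattern through the growth hormone receptor, the kinase JAK2 and the transcription factor STAT5b, and the repressors BCL6 and CUX2 add to it in males and females respectively. Its best known outputs are steroid- and drug-metabolising cytochrome P450 enzymes, sulfotransferases, major urinary proteins and organic anion carriers. These are background facts and were not measured here.

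The STAT5 binding motif is commonly written TTCNNNGAA, which reads the same on both strands. Its letters were searched for in RefSeq promoters (build GRCm38.p6, 250 bases before to 50 bases after a start site), of which several can belong to 1 gene. A match was found for 9 of the 50 genes with a promoter that were higher in females (18%), for 8 of the 86 that were higher in males (9.3%), and for 810 of the 9658 autosomal genes tested that have a promoter (8.39%). These counts describe letters, not binding sites, and no test was made of them. The promoters below are shown because 3 of them belong to the 6 members of the growth hormone list that differed between the sexes, and the fourth to Sult3a1, whose sex difference passed the interaction test with genotype. Of the other members that differed, Egfr and Onecut1 held no match in their windows, and Socs2 had no entry. Capitals mark each match, and all are written 5′ to 3′ on the gene's own strand.
Cish, chr9:107296409-107296708, plus strand: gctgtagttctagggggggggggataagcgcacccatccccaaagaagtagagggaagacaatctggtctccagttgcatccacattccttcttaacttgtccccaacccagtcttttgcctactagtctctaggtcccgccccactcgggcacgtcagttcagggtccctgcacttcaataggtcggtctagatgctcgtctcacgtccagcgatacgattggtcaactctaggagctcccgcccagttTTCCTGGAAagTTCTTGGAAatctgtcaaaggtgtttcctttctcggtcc
Prlr, chr15:10223656-10223955, plus strand: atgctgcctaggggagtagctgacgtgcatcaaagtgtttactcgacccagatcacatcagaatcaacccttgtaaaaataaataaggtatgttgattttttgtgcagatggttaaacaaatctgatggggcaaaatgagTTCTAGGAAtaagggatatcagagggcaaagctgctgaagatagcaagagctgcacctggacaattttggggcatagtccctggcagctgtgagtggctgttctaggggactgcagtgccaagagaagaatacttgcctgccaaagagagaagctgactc
Bcl6, chr16:23981234-23981533, minus strand: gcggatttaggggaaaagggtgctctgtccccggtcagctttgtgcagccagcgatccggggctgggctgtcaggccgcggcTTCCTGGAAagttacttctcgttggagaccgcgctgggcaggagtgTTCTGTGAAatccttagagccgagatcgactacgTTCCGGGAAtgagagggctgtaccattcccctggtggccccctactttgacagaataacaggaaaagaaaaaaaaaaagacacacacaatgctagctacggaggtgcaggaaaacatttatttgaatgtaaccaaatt
Sult3a1, chr10:33857472-33857771, plus strand: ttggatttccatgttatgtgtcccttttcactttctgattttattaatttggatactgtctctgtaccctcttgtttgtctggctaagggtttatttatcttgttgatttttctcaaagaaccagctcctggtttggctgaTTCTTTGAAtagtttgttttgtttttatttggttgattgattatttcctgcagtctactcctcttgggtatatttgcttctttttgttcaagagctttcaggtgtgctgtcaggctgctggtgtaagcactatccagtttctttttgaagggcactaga
Cish had 2 matches next to each other at its start site, Bcl6 3 at this one of its start sites, and Prlr and Sult3a1 had 1 each.

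The control libraries held 13845303 to 16612997 counts, so 1 count was worth at most 0.0722 CPM of the unscaled total (the count relative to the library total). Levels below are CPM after TMM scaling. The leading principal component was computed over all genes tested, those of the sex chromosomes included, and held 42.6% of the variance. It separated the sexes: males lay at -45.5 to -19.1 and the females at 22.2 to 42.1. Genes outside the comparison matched the sex labels: Xist had 2.07, 8.72 and 11.2 CPM in males and 734, 680.2 and 569 CPM in females, and the Y-linked Ddx3y 60.9, 41.9 and 41.3 CPM against 1.33, 2.11 and 0.209 CPM. The labelled tissue was matched as well, with 20898 to 34439 CPM of unscaled total summed over hepatocyte markers in males and 14684 to 26249 CPM in females. The first male library stood apart in holding neural transcripts, whose markers summed to 408 CPM, against 95.7 to 128 CPM in the other 5. Mitochondrially encoded genes took 46.7% to 57.3% of the counts in males and 56.5% to 69.8% in females, with the highest share in female replicate 2. The median autosomal gene had a log2 fold change of 0.02 with TMM scaling and of 0.30 with totals only, so small differences depend on the scaling, and medians of gene lists are to be read against 0.02. Log2 fold changes are male minus female throughout, given ± their standard error from 3 libraries a sex.

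A total of 177 autosomal genes passed the edgeR quasi-likelihood test at a Benjamini-Hochberg adjusted p under 0.05, which is 1.45% of those tested. Of these, 113 were higher in males (0.927%) and 64 in females (0.525%). Large differences were common among them: 160 differed at least 2-fold, 74 at least 4-fold and 32 at least 16-fold, of which 17 were higher in males and 15 in females. In all 177 the 3 male and the 3 female libraries did not overlap in CPM, as was true of 19.2% of all genes tested (10.2% with males above, 8.95% with females above). Without the male library with neural transcripts 185 genes passed, 137 of the 177 among them. The count was 77 without female replicate 1, 102 without male replicate 2 and 42 when all 12 libraries were fitted together, 41 of these among the 177. With library size alone it was 218, of which 179 were higher in males and 39 in females.

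**Figure D1:**
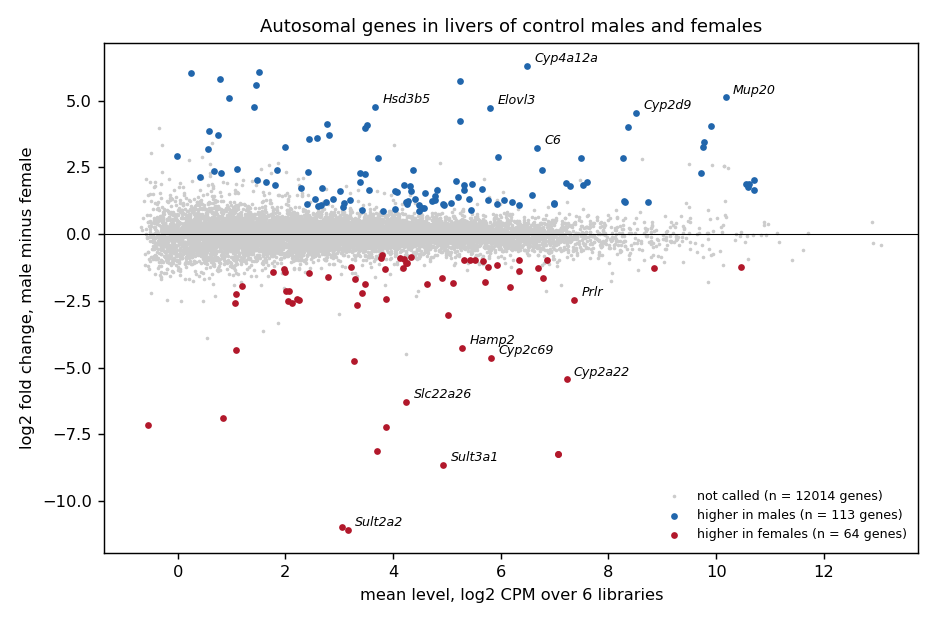
Log2 fold change, male minus female, against mean level in log2 CPM for each autosomal gene tested in the 6 control libraries. Grey points did not pass, blue points (113 genes) were higher in males and red points (64 genes) higher in females, and Sult3a1 at -8.64 is among those farthest from 0. Sult2a2 and Sult2a5 have 0 counts in males, so that their plotted values depend on the fit.

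A pheromone carrier and a P450 enzyme marked the male liver at high levels. Mup20, which encodes the male scent protein darcin, had 2303, 2542 and 1901 CPM in male replicates 1, 2 and 3 and 58.8, 81.7 and 53.5 CPM in the females. The log2 fold change, male minus female, came to 5.12 ± 0.31 (edgeR, adjusted p = 4.15e-06). Cyp2d9, a steroid 16-alpha-hydroxylase used as a marker of the male liver, had 705, 793 and 597 CPM in males against 27.3, 29.6 and 33.2 CPM in females (4.54 ± 0.26, adjusted p = 3.26e-06). Neither gene came near an overlap of the sexes. Per kilobase of exon the levels were 2423 CPM for Mup20 and 263 CPM for Cyp2d9 in males, which makes Mup20 the more abundant of this pair.

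The largest fitted log2 fold change on the male side was that of Cyp4a12a, the enzyme that makes the vasoactive lipid 20-HETE, with 219, 192 and 119 CPM in males and 1.85, 3.94 and 1.12 CPM in females (6.30 ± 0.45, adjusted p = 3.32e-05). Its neighbour Cyp4a12b had a log2 fold change of 5.74 ± 0.41, but 48.9% of the 50-base words in Cyp4a12a transcripts also occur in other genes, so reads of the pair may be split between them. Elovl3, which elongates very long chain fatty acids, had 150.2, 64.8 and 107 CPM against 4.46, 4.40 and 3.21 CPM (4.74 ± 0.33). Hsd3b5, a steroid reductase of the male liver, had 20.9, 30.7 and 20.9 CPM against 0.695, 0.825 and 1.12 CPM (4.77 ± 0.28). In both genes the lowest male library was at least 10 times above the highest female library. Scara5, a receptor that takes up ferritin, rose from 0.0579 to 0.275 CPM in females to 3.78 to 5.59 CPM in males (4.76 ± 0.47), and Nat8f5, of the N-acetyltransferase 8 family, from 0 to 0.116 to 4.13 to 7.15 CPM. Nat8f5 had only 3 counts in the females together, and the ratio of males to females was 73.96 (exact 95% interval 25.02 to 361), an interval that covers counting error only. Leaving out genes whose mean log2 CPM is under 1, Mup21 (4.23 ± 0.23), the complement inhibitor gene Susd4 (4.13 ± 0.33) and the calcium-binding protein gene Cib3 (4.09 ± 0.58) completed the 12 largest male differences, with the P450 pair, Mup20, Cyp2d9 and the complement factor Cfd, which is described with the immune genes. Of those 12, Cib3 (adjusted p = 0.0970 without female replicate 1) and Cfd lost their calls when a library was left out.

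Sulfotransferases led the female side, and several were not detected in males. Sult2a2 had 0 counts in the 3 males together and 749 in the females, where it stood at 19.7, 22.6 and 11.4 CPM. With a floor of 3 counts over the male group it was at least 281-fold higher in females (edgeR adjusted p = 2.77e-05). Sult2a5 had 0 and 676 counts, at least 254-fold higher in females (adjusted p = 0.000104). Sult2a1, the hydroxysteroid sulfotransferase that acts on bile acids and DHEA, had 0, 0.262 and 0.269 CPM in males and 34.8, 30.3 and 21.7 CPM in females (-7.21 ± 0.43). Sult2a members share sequence, with 62.1% of the 50-base words of Sult2a2 found in other genes, mainly Sult2a1, so the individual counts are uncertain. Sult3a1 (ENSMUSG00000069668, chromosome 10, 33857721 to 33879532, GRCm38), which sulfates amines and shares 6.15% of its words, had 0, 0.0656 and 0.322 CPM in males and 75.05, 46.04 and 61.6 CPM in females (-8.64 ± 0.47, adjusted p = 3.26e-06).

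Beside the sulfotransferases stood enzymes and carriers of drug and steroid metabolism. Slc22a26, an organic anion carrier, had 0.143, 0.459 and 0.752 against 38.4, 47.1 and 26.7 CPM (-6.28 ± 0.39, adjusted p = 5.99e-06). Cyp2c69 had 2.42, 5.77 and 4.89 against 130.2, 87.1 and 107 CPM (-4.62 ± 0.32), with 54.3% of its words shared, mainly with Cyp2c40. Both were far apart in the sexes in every library. Cyp3a41a, a steroid-oxidising P450 that cannot be told apart from Cyp3a41b by 98.6% of its words, varied more: it had 525, 204 and 71.3 CPM in females against 0, 1.31 and 1.24 CPM in males (-8.23 ± 1.24, adjusted p = 0.0499). Cyp2a22 (269.6, 534 and 73.3 against 4.42, 6.23 and 9.46 CPM, -5.44 ± 0.81) and the carrier Slc22a27 (18.8, 31.6 and 5.79 against 0.214, 1.11 and 0.699 CPM, -4.75 ± 0.77) shared with it a low value in female replicate 3. Aldh3b3, an aldehyde dehydrogenase gene, was among the 12 largest female differences with -4.32 ± 0.68. The calls of these last 4 rested on few libraries, and that of Cyp3a41a was also lost with p-values adjusted over autosomal genes only. They held in 3, 2, 2 and 4 of the 6 omissions of 1 library, with highest adjusted p values of 0.200 (without male replicate 2), 0.147 (without male replicate 2), 0.175 (without male replicate 3) and 0.0677 (without female replicate 1).

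**Figure D2:**
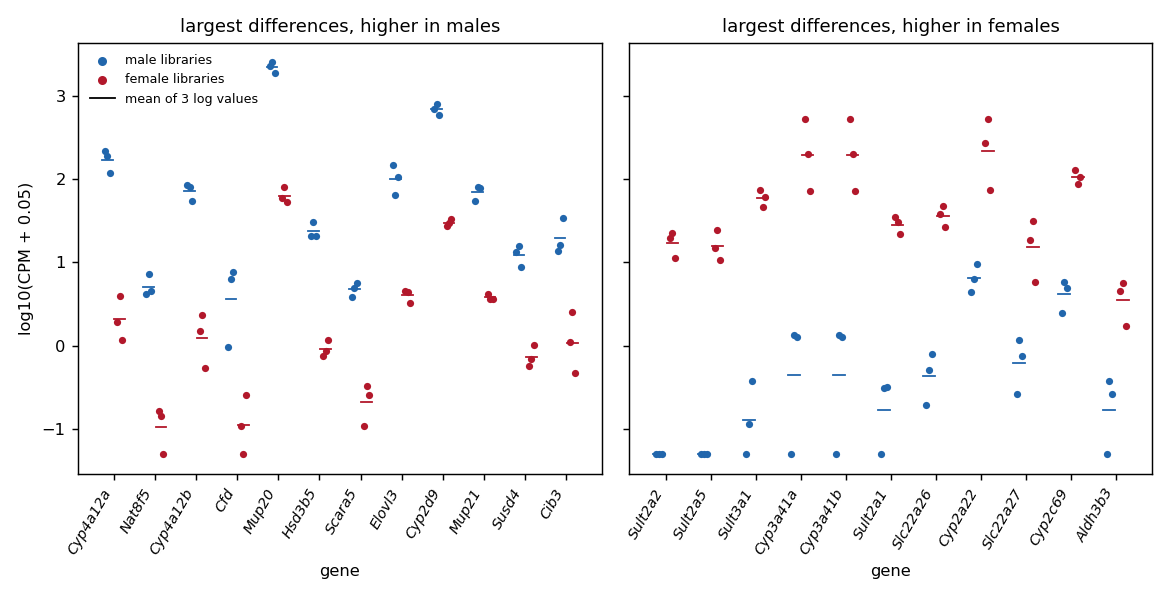
Level in each library, as log10 of CPM plus 0.05, of the genes with the largest differences, 12 higher in males and 11 higher in females. Blue points are the 3 male and red points the 3 female libraries, lines are means of the log values, and the male libraries of Sult2a2 and Sult2a5 all lie at 0 CPM.

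Of the lists of genes known as sex-biased in mouse liver, chosen with earlier results of these data known, the male-biased list had 27 of its 38 tested members higher in males, 0 higher in females and a median log2 fold change of 2.40. The female-biased list had 19 of 49 higher in females, 0 higher in males and a median of -1.47. Over all autosomal genes tested, 0.927% were higher in males and 0.525% in females. The count of the male-biased list was 17 without female replicate 1 and 24 without male replicate 1, and that of the female-biased list 13 without male replicate 2 or 3 and 17 without male replicate 1. Several of the best known female markers were too low to be tested. Cyp2b9 had 0, 0 and 19 counts in males and 4, 0 and 1 in females. Sult1e1, which inactivates estrogens, had 0, 1 and 0 counts against 5, 3 and 5. A1bg had 5, 1 and 0 counts against 51, 21 and 9, and Sult3a2 0, 0 and 0 against 15, 8 and 20, so for those 2 all female counts lay above the male ones. The filter had removed them because too few libraries reached its minimum.

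In the growth hormone pathway 2 feedback inhibitors differed, and the core signalling genes did not pass. Of 34 tested members of the growth hormone and sex steroid list, 2 were higher in males, 4 were higher in females and 28 did not pass, with a median of -0.16. Of all autosomal genes tested, 0.927% were higher in males and 0.525% in females. The receptor gene Ghr had 101, 116 and 113 CPM in males and 128, 135 and 121 CPM in females (-0.22 ± 0.19, edgeR adjusted p = 0.684), and Jak2 (-0.01 ± 0.21), Stat5a (0.16 ± 0.23) and Stat5b (0.12 ± 0.19) did not pass either. Igf1, the growth factor gene that growth hormone induces, was at -0.16 ± 0.26 (adjusted p = 0.852). Of the feedback inhibitors of the receptor, Cish and Socs2 were higher in females, while Socs1 (0.40 ± 0.52, adjusted p = 0.802) and Socs3 (-0.28 ± 0.23, adjusted p = 0.669) did not pass. Cish had 6.72, 4.68 and 11.5 CPM against 1.497, 1.84 and 0.967 CPM (-2.43 ± 0.37, adjusted p = 0.00611), and Socs2 80.1, 88.3 and 178 against 19.96, 43.3 and 25.2 CPM (-1.97 ± 0.37, adjusted p = 0.0348). In both the highest library was female replicate 3, the female with the lowest levels of Cyp3a41a and Cyp2a22. Both genes also passed without that library. The list's count was 3 without male replicate 3 or female replicate 2, 8 without female replicate 3 and 5 without male replicate 1.

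Receptors and transcription factors of the same list differed too. Prlr, the prolactin receptor gene, had 357, 348 and 131 CPM in females and 64.5, 36.7 and 49.9 CPM in males (-2.47 ± 0.38, adjusted p = 0.00992). Egfr, the receptor of epidermal growth factor, was higher in males with 50.7, 76.1 and 61.1 against 18.7, 13.02 and 19.9 CPM (1.86 ± 0.22, adjusted p = 0.000867). Bcl6, the repressor that limits female-biased genes in the male, had 61.8, 73.8 and 72.2 against 11.8, 13.02 and 31.9 CPM (1.87 ± 0.35, adjusted p = 0.0320). Onecut1, the hepatocyte factor HNF6, had 18.8, 20.5 and 33.9 CPM in females against 3.78, 6.03 and 3.76 CPM in males (-2.43 ± 0.28, adjusted p = 0.000750), although 52.3% of its words occur in transcripts of other genes as well, mainly Gm20649. Cux2, the repressor of the female liver, had 57.02, 44.3 and 6.97 against 1.497, 1.38 and 1.93 CPM and did not pass (-4.48 ± 0.86, adjusted p = 0.0956), with its lowest female value in replicate 3, without which it passed. Esr1, the estrogen receptor gene, showed the same shape with 8.63, 10.7 and 2.86 against 2.21, 3.21 and 2.74 CPM and an adjusted p of 0.156. Egfr, Onecut1 and Cish kept their calls in each omission of 1 library, while Prlr kept it in 4 of 6 (adjusted p = 0.0670 without female replicate 2), Socs2 in 3 (0.124 without male replicate 3) and Bcl6 in 1 (0.129 without male replicate 2).

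Over the 18 metabolic lists 41 of 431 tested genes were higher in males and 23 in females, each gene counted once, with a median of 0.07, beside 0.927% and 0.525% of all autosomal genes tested. These lists include the 2 made of genes known for their sex bias, so the count describes a choice of genes. Among P450 enzymes of families 1 to 3, which oxidise drugs and steroids, 3 of 41 were higher in males, 6 in females and 32 did not pass. The males had Cyp2d9, Cyp2d12 (2.41 ± 0.39) and Cyp2u1, a fatty acid hydroxylase (24.9, 24.3 and 12.5 against 1.85, 1.01 and 0.906 CPM, 3.98 ± 0.36). The females had Cyp3a41a, Cyp3a41b, Cyp2a22, Cyp2c69, Cyp2c40 (182, 140.4 and 179 against 56.5, 61.4 and 43.4 CPM, -1.64 ± 0.22) and Cyp2c38 (31.1, 46.9 and 38.1 against 9.76, 11.4 and 10.8 CPM, -1.86 ± 0.20). Outside the list, the pseudogene Cyp2c53-ps was higher in males (3.73 ± 0.65), in 3 of 6 omissions of 1 library (adjusted p = 0.163 without female replicate 1). In family 4, which hydroxylates fatty acids, the Cyp4a12 pair were the 2 of 14 that passed. Cyp2d12 passed in 5 of 6 omissions (adjusted p = 0.0755 without female replicate 1).

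Enzymes that conjugate or oxidise small molecules were split by family. Among 15 tested cytosolic sulfotransferases 6 were higher in females and 1 in males, beside 0.525% and 0.927% of all autosomal genes tested. The 6 were Sult2a1, Sult2a2, Sult2a4, Sult2a5, Sult2a6 and Sult3a1, of which Sult2a4 had 0 and 48 counts in the male and female groups (at least 18.03-fold) and Sult2a6 1 and 143, with a ratio of 161 (exact 95% interval 28.5 to 6408). The exception was Sult2a8, which sulfates bile acids, with 182, 185 and 162 CPM in males and 67.4, 72.3 and 94.96 CPM in females (1.17 ± 0.21, edgeR adjusted p = 0.0151). Of the flavin monooxygenases, which oxidise nitrogen and sulfur compounds, Fmo2 (-1.59 ± 0.25) was higher in females, and so was Fmo1, whose 143, 172 and 145 CPM stood above 59.9, 85.97 and 85.9 CPM (-0.99 ± 0.21, adjusted p = 0.0438). Among 25 glutathione transferases the pi-class genes Gstp1 (630.3, 547 and 605 against 285, 224 and 269.8 CPM, 1.19 ± 0.22) and Gstp2 (1.24 ± 0.21) were higher in males and Gstt3 (-0.91 ± 0.20) in females, and 54.3% of the words of Gstp2 are shared, mainly with Gstp1. Ugt2b1 was the 1 of 16 glucuronosyltransferases that passed (90.2, 93.97 and 67.4 against 29.6, 34.1 and 51.2 CPM, 1.13 ± 0.24), and Ces2c the 1 of 14 carboxylesterases (1.61 ± 0.31), both higher in males. Most of these smaller differences were lost when 1 library was left out. Fmo1 and Gstt3 passed in 0 of 6 omissions, Gstp1 and Ugt2b1 in 1, Ces2c in 2, Sult2a4, Sult2a8 and Gstp2 in 4 and Fmo2 in 5. The highest adjusted p was 0.200 for Ugt2b1 (without female replicate 1), 0.167 for Gstt3 (without male replicate 3) and 0.148 for Ces2c (without female replicate 1). It was 0.132 for Fmo1, 0.0601 for Fmo2, 0.0907 for Gstp1, 0.0804 for Gstp2, 0.0678 for Sult2a4 and 0.114 for Sult2a8, each without female replicate 1.

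**Figure D3:**
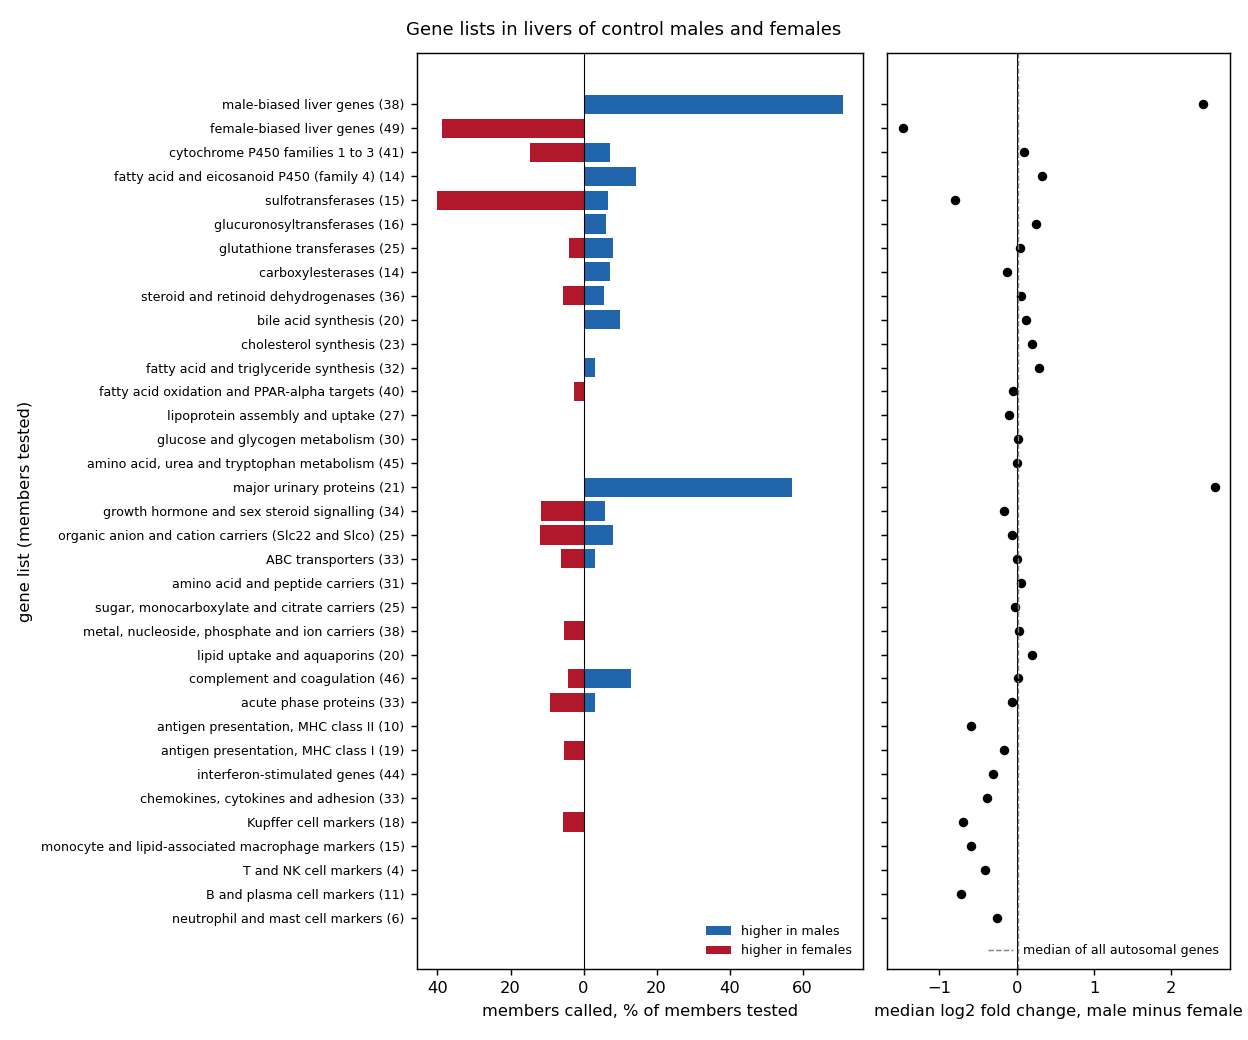
Left, members of each gene list shown that passed the test, as a percentage of the members tested, higher in males to the right (blue) and higher in females to the left (red). Right, the median log2 fold change of each list, male minus female, with the median of all autosomal genes (0.02) as a dashed line. The male-biased and major urinary protein lists lie farthest to the right, and the lists of immune cells have negative medians with few or no members called.

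Steroid and bile acid enzymes differed at single steps. Of 36 steroid and retinoid dehydrogenases 2 were higher in each sex, beside 0.927% (males) and 0.525% (females) of all autosomal genes tested. Hsd3b5 and Srd5a1, the 5-alpha-reductase of testosterone and other steroids (26.5, 35.02 and 24.3 against 8.11, 6.33 and 9.48 CPM, 1.84 ± 0.22, edgeR adjusted p = 0.000769), were higher in males. Cyp17a1, the 17-alpha-hydroxylase of steroid synthesis (104, 33.2 and 35.2 against 6.49, 8.13 and 6.50 CPM, -3.03 ± 0.47), and Rdh16f2, a retinol dehydrogenase (57.1, 46.3 and 58.4 against 13.3, 16.2 and 16.1 CPM, -1.83 ± 0.18), were higher in females. Of 20 bile acid synthesis genes 2 were higher in males and 0 in females. Cyp7b1, which hydroxylates oxysterols in the alternative pathway, had 22.2, 25.5 and 21.01 CPM against 3.65, 3.12 and 2.79 CPM (2.84 ± 0.20, adjusted p = 1.43e-05). Cyp8b1, the 12-alpha-hydroxylase that makes cholic acid, had 64.01, 88.3 and 78.2 against 25.8, 29.7 and 15.4 CPM (1.70 ± 0.25, adjusted p = 0.00404). The sexes did not overlap in any of these 6 genes, as in all 177 genes that passed. Of these 6 only Cyp17a1 lost its call in an omission, passing in 3 of 6 (adjusted p = 0.0958 without male replicate 3). Outside these 2 lists, the steroid 21-hydroxylase gene Cyp21a1 and the dehydrogenase gene Sdr9c7 were also called higher in males. They kept the call in 2 and 4 of 6 omissions (adjusted p = 0.122 without female replicate 1 and 0.0553 without male replicate 2).

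Core pathways of energy metabolism gave few or no calls, beside 1.45% of all autosomal genes tested. At that share, counts of 0 or 1 in lists of this size do not set these pathways apart from other genes. Their counts at an unadjusted p or by DESeq2 have no share of all genes beside them and do not set them apart either. In fatty acid and triglyceride synthesis, Elovl3 was the 1 of 32 that passed, while Scd1, the desaturase that makes oleate, had 1550.3, 2062 and 1206 CPM in males and 498, 922 and 613 CPM in females (1.24 ± 0.31, edgeR adjusted p = 0.0807). In fatty acid oxidation and PPAR-alpha targets the peroxisomal carrier Abcd2 was the 1 of 40 that passed, higher in females (-2.12 ± 0.36). Hao2, a peroxisomal oxidase, had 1.27, 8.71 and 1.05 CPM in females and 0, 0.0656 and 0 CPM in males, with 1 count in the males together, and an adjusted p of 0.0534. Among 23 genes of cholesterol synthesis edgeR called 0, with 4 at an unadjusted p under 0.05 and 0 by DESeq2, limma-voom or limma on the deposited variance-stabilised values. It also called 0 of 27 genes of lipoprotein assembly (8 unadjusted, 4 by DESeq2), 0 of 30 of glucose and glycogen metabolism (4 unadjusted, 0 by DESeq2) and 0 of 45 of amino acid, urea and tryptophan metabolism (7 unadjusted, 5 by DESeq2 and 1 each by limma-voom and limma). The medians of these lists were 0.20, -0.10, 0.02 and 0.00. Without male replicate 1 the lipoprotein count was 1 and that of the other 3 lists 0. Without female replicate 3 the fatty acid oxidation count was 3 and the lipoprotein count 1, and without female replicate 2 the amino acid count was 2. Asns, the asparagine synthetase gene, had the highest fold change of the amino acid list, with 2.07, 1.11 and 0.537 CPM in males and 0.174, 0 and 0 CPM in females (adjusted p = 0.0588).

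Major urinary protein genes, whose products carry pheromones in urine, gave 12 members higher in males and 0 in females of 21 tested, with a median of 2.56. All 21 members had male libraries above all female libraries, as did 10.2% of all autosomal genes tested. Of all autosomal genes tested, 0.927% were called higher in males and 0.525% higher in females. Mup3 had 1642, 1369.6 and 1172 CPM in males and 348, 212 and 294 CPM in females (2.29 ± 0.28, adjusted p = 0.000896), and Mup7 2604, 1457 and 751 against 143, 93.8 and 203 CPM (3.45 ± 0.47). Many copies are nearly identical, with all 50-base words of Mup15 and Mup22 found elsewhere in the family, so their counts are not separate observations, whereas Mup20, Mup21 and Mup3 share 50.5%, 19.3% and 13.3%. The count of called members was 4 without female replicate 1 or 2, 9 without male replicate 1 and 21 without male replicate 3, the male with the lowest level of Mup7. In the fit of all 12 libraries it was 2. Outside the list, the pseudogene Mup-ps16 was higher in females (-1.37 ± 0.23), in 5 of 6 omissions (adjusted p = 0.0755 without female replicate 1).

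Over the transport lists 3 of 172 tested genes were higher in males and 7 in females, beside 0.927% and 0.525% of all autosomal genes tested. Organic anion and cation carriers of the Slc22 and Slco families, which bring drugs, steroid conjugates and bile acids into the hepatocyte, gave 2 and 3 of these among 25. Slco1a1, a sodium-independent carrier of bile acids and steroid sulfates, had 93.1, 121 and 109.6 CPM in males and 11.9, 5.32 and 26.3 CPM in females (2.88 ± 0.50, edgeR adjusted p = 0.0380). Its close relative Slco1a4 went the other way, with 77.4, 72.6 and 78.02 CPM in females and 23.3, 28.4 and 46 CPM in males (-1.22 ± 0.24, adjusted p = 0.0285). Per kilobase of exon, males had 20.4 CPM of Slco1a1 and 5.08 of Slco1a4, and females 2.75 and 11.8, so the order of the 2 carriers was turned over between the sexes. In the Slc22 family Slc22a28 was higher in males (22.5, 37.1 and 30.1 against 13.4, 9.45 and 12.9 CPM, 1.32 ± 0.22, with 53.9% of its words shared) and Slc22a26 and Slc22a27 in females.

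Among 33 ABC transporters, which pump their substrates with energy from ATP, 1 was higher in males and 2 in females. The shares of all autosomal genes tested were 0.927% and 0.525%. Abcg2, which exports urate, porphyrins and drugs into bile, was even within each sex, with 39.8, 39.02 and 39.8 CPM in males and 13.6, 15.96 and 14.9 CPM in females (1.42 ± 0.17, edgeR adjusted p = 0.000741). Abcb1a, a multidrug exporter, had 5.39, 7.34 and 4.25 against 1.64, 2.10 and 2.58 CPM (-1.41 ± 0.30). Abcd2, given above, was the other. Among 38 genes of metal, nucleoside, phosphate and ion handling, Hamp2, a relative of the iron hormone hepcidin, had 108, 56.8 and 56.96 CPM in females and 2.92, 2.82 and 5.75 CPM in males (-4.26 ± 0.37, adjusted p = 0.000158). Mt2, a metallothionein that binds zinc and copper, had 16.8, 21.5 and 14.4 against 2.71, 3.93 and 7.52 CPM (-1.87 ± 0.33, adjusted p = 0.0186), and Mt1 260.3, 211 and 189 against 24.9, 52.3 and 99.3 CPM without passing (adjusted p = 0.0807). edgeR called 0 of 31 amino acid and peptide carriers (1 at an unadjusted p under 0.05, 0 by DESeq2), 0 of 25 sugar, monocarboxylate and citrate carriers (8 unadjusted, 1 by DESeq2) and 0 of 20 genes of lipid uptake and aquaporins (6 unadjusted, 2 by DESeq2), and limma-voom and limma called 0 of each. In that last list Cd36, a fatty acid receptor, had 22.9, 29.3 and 27.6 CPM in females and 12.8, 19.8 and 13.9 CPM in males (adjusted p = 0.104), and Fabp1, the fatty acid binding protein of the hepatocyte, 901, 1609.7 and 1078 CPM in males and 655, 674 and 580.5 CPM in females (adjusted p = 0.152).

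Abcg2, Hamp2 and Slc22a26 kept their calls in each omission of 1 library. Slc22a28 and Abcd2 kept it in 4 of 6 (adjusted p = 0.0616 and 0.0667 without female replicate 1) and Mt2 in 3 (0.0903 without male replicate 2). Slco1a1 did so in 2 (0.149 without female replicate 1), Slco1a4 in 1 (0.142 without male replicate 2) and Abcb1a in 1 (0.150 without female replicate 2). The count of the Slc22 and Slco list was 1 without male replicate 2 or female replicate 1, that of the ABC list 1 without female replicate 1 or 2, and that of the metal and ion list 1 without male replicate 2 or female replicate 1 and 4 without male replicate 3. Without male replicate 1 the 3 counts were 4, 2 and 3, and 1 gene of lipid uptake passed. Outside the transport lists, Slc15a5, of a family of peptide carriers, and Slc35e3 were also called higher in males. They kept the call in 2 and 1 of 6 omissions (adjusted p = 0.104 without female replicate 1 and 0.191 without male replicate 3).

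The immune genes that passed were mainly those of secreted plasma proteins. Over the immune lists 7 of 228 tested genes were higher in males and 7 in females, beside 0.927% and 0.525% of all autosomal genes tested. The complement system opens pathogens with a pore built from its terminal components, and 4 genes of that pore were higher in males. C6 had 140.5, 213 and 202 CPM in males and 19.9, 16.1 and 22.9 CPM in females (3.24 ± 0.24, edgeR adjusted p = 1.98e-05). C9 had 336, 269 and 257 against 91.8, 75.6 and 75.3 CPM (1.83 ± 0.22, adjusted p = 0.000769). C8b had 31.01, 33.7 and 25.8 against 8.92, 7.52 and 13.2 CPM (1.60 ± 0.23) and C8a 416, 445 and 459.9 against 154, 186 and 227 CPM (1.22 ± 0.23). The sexes did not overlap in any of the 4, as in all 177 genes that passed.

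Genes upstream in the cascade were split. C4a, the sex-limited protein that resembles C4b, had 207, 257 and 86.4 CPM in males and 33.96, 41.6 and 28.9 CPM in females (2.40 ± 0.36, adjusted p = 0.00887, 30.6% of words shared, mainly with C4b). Cfd, the protease factor D that is abundant in adipocytes, had 0.927, 6.23 and 7.58 CPM in males and 0.0579, 0 and 0.209 CPM in females (5.60 ± 1.003, adjusted p = 0.0340). Male replicate 1 was well below the other males. C3, the central component, was higher in females with 1855, 2174 and 1876 against 685, 726 and 1098 CPM (-1.23 ± 0.27, adjusted p = 0.0486), and so was Mbl2, the mannose-binding lectin of the lectin pathway (74.8, 67.5 and 60.8 against 26.9, 35.2 and 39.2 CPM, -1.003 ± 0.20). Of the 46 genes of complement and coagulation 6 were thus higher in males and 2 in females, with a median of 0.01. The shares of all autosomal genes tested were 0.927% and 0.525%. Cfd is also a member of the list of adipocyte, pancreas, gut and muscle markers, whose summed level was 57.2 to 77.7 CPM of unscaled total in males and 30.4 to 47.9 CPM in females. The adipocyte genes Adipoq and Lep of that list had 0 counts in all 6 control libraries and Plin1 and Cidea 0 to 2, while Lgals4, Acta1 and Fabp2 held most of the other counts. In the Ahr-null mice, Cfd had a log2 fold change of -0.65 ± 0.93.

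Acute phase proteins gave 1 gene higher in males and 3 in females among 33, beside 0.927% and 0.525% of all autosomal genes tested. Il1r1, the receptor of interleukin 1, was higher in males (44.1, 50.2 and 65.4 against 14.9, 14.9 and 31.4 CPM, 1.38 ± 0.30). Orm3, an orosomucoid, had 47.6, 49.2 and 38.5 CPM in females and 13.3, 19.5 and 10.9 CPM in males (-1.63 ± 0.23, edgeR adjusted p = 0.00296), and Itih4, an inter-alpha-trypsin inhibitor chain, 536, 871 and 547 against 289.6, 207 and 303 CPM (-1.29 ± 0.27). Mt2, given above, was the third. The acute phase list as a whole had a median of -0.06.

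C6, C9, C8b and Orm3 kept their calls in each omission of 1 library. C4a kept it in 4 of 6 (adjusted p = 0.0684 without female replicate 1), C8a in 2 (0.134 without female replicate 1), Cfd in 2 (0.166 without female replicate 1) and Mbl2 in 2 (0.135 without female replicate 1). Il1r1 did so in 2 (0.200 without female replicate 1), C3 in 1 (0.217 without male replicate 2) and Itih4 in 0 (0.193 without male replicate 2). C3 also did not pass with p-values adjusted over autosomal genes only, with library size alone, without robust estimation of the spread, with mitochondrially encoded genes left out, or with the 10 most abundant genes left out of the scaling. The complement count was 3 without female replicate 1 or 2 and 6 without male replicate 1, and the acute phase count 1 without male replicate 2 or female replicate 1.

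**Figure D4:**
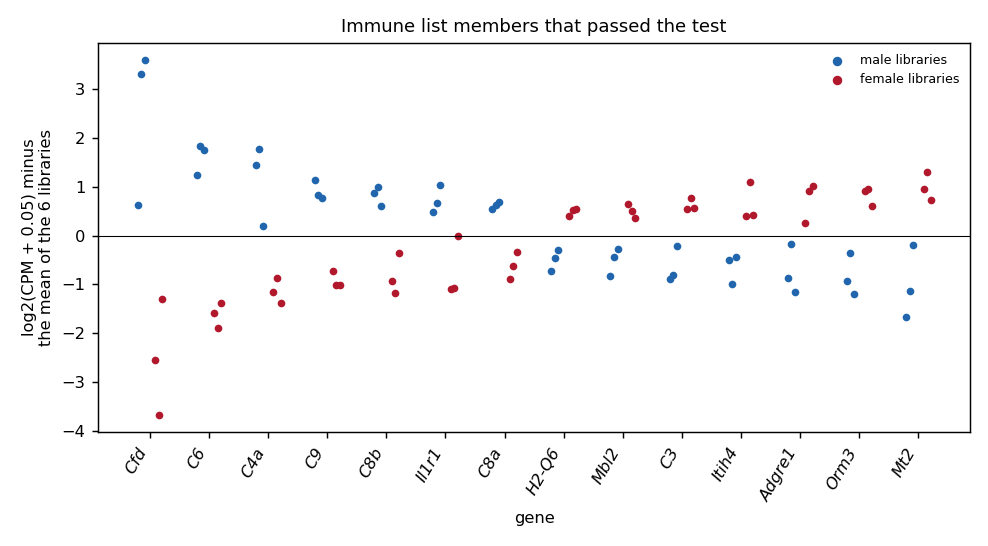
Log2 of CPM plus 0.05 in each library, minus the mean of the 6 libraries, for the 14 immune list members that passed the test. Blue points are the 3 male and red points the 3 female libraries. The sexes do not overlap in any of the 14, as in all 177 genes that passed, while male replicate 1 lies near the mean for Cfd.

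Genes of immune cells leaned to the female side with hardly any call. Several lists of other liver cells given below did so as well, though not in every omission of 1 library. Over all autosomal genes tested, 1.45% passed. Adgre1, which encodes the macrophage marker F4/80, was the 1 of 18 tested Kupffer cell markers that passed, with 5.45, 8.62 and 9.34 CPM in females and 2.49, 4.07 and 2.04 CPM in males (-1.44 ± 0.31, edgeR adjusted p = 0.0440). It kept the call in 1 of 6 omissions (adjusted p = 0.164 without female replicate 3). All 18 had a negative fold change, male minus female, with a median of -0.70, against 0.02 for all autosomal genes. With DESeq2, which also called more genes than edgeR over all autosomal genes, 6 of them passed. Cd5l, secreted by Kupffer cells, had 103, 191 and 163 CPM in females and 62.3, 84.1 and 69.8 CPM in males (adjusted p = 0.0606), and C1qb, which starts the classical complement pathway, 42.1, 41.2 and 43.2 against 22.1, 31.5 and 19.8 CPM (adjusted p = 0.0901). The summed level of the Kupffer markers was 480 to 763 CPM of unscaled total in females and 358 to 494 CPM in males, so the sums overlapped. Of the defining markers Clec4f had 134, 89.1 and 170.0 CPM in females and 71.1, 83.5 and 72.3 CPM in males, and Timd4 4.11, 3.12 and 7.67 against 4.63, 3.41 and 2.36 CPM, so neither was at 0 in a library and neither passed. In whole tissue more cells of a type and more RNA per cell cannot be told apart.

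Antigen presentation and other leukocyte lists had the same sign. H2-Q6, a class Ib histocompatibility gene, was the 1 of 19 class I genes that passed (101, 111 and 112 against 46.2, 55.7 and 62.02 CPM, -0.98 ± 0.19, adjusted p = 0.0256, 32.0% of words shared), and it passed in 0 of 6 omissions (0.123 without male replicate 2). All 10 class II genes had a negative fold change with a median of -0.59, and edgeR called 0 (6 at an unadjusted p under 0.05, 2 by DESeq2). Cd74, the class II chaperone, had 94.6, 109.9 and 91.1 CPM in females and 47.4, 73.8 and 72.98 CPM in males (adjusted p = 0.250). Of 44 interferon-stimulated genes 36 had a negative fold change, with a median of -0.31 and 0 calls by edgeR (10 unadjusted, 0 by DESeq2). The share of all autosomal genes at that unadjusted threshold is not given here, so the unadjusted counts do not set a list apart. The chemokine and cytokine list had a median of -0.39 (0 of 33 by edgeR, 7 unadjusted, 1 by DESeq2), the monocyte and lipid-associated macrophage list -0.60 (0 of 15, 4 unadjusted, 1 by DESeq2) and the B and plasma cell list -0.72 (0 of 11, 4 unadjusted, 2 by DESeq2). For T and NK cells 4 of 27 markers could be tested and for neutrophils and mast cells 6 of 20, with medians of -0.41 and -0.26, 0 calls by edgeR or DESeq2 and 1 at an unadjusted p under 0.05 in each. In the 7 of these lists where edgeR called 0, limma-voom and limma called 0 as well.

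The sign of the immune medians depended in part on scaling, and their size on single libraries. With library size alone the medians of the Kupffer (-0.39), class II (-0.27), B cell (-0.40) and monocyte (-0.25) lists stayed negative, that of the class I list turned to 0.14, the interferon list to 0.02 and the neutrophil list to 0.08. Relative to the median of all genes, which is then 0.30, all of these stayed lower in males. Without female replicate 2 the medians were -0.33 for the class II list, -0.17 for the interferon list and -0.37 for the monocyte list, and without male replicate 1 that of the B cell list was -0.41. With Adgre1, the transcription factor gene Spi1 (PU.1, 21.5, 32.2 and 24.1 against 9.55, 14.2 and 13.3 CPM, -1.07 ± 0.22) and Nfam1, a receptor of immune cells (-0.78 ± 0.17), also passed on the female side, but outside the lists and chosen after their values were seen. Both passed in 0 of 6 omissions (adjusted p = 0.101 without female replicate 2 and 0.190 without male replicate 3).

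Markers of other liver cells gave few calls, beside 1.45% of all autosomal genes tested. At that share, counts of 0 or 1 in lists of this size do not set them apart from other genes. edgeR called 0 of 17 hepatocyte markers (2 at an unadjusted p under 0.05, 1 by DESeq2), 0 of 20 stellate cell and fibroblast markers (3 unadjusted), 0 of 15 endothelial markers (1 unadjusted), 0 of 4 red blood cell markers (0 unadjusted) and 0 of 8 neural markers (1 unadjusted), and DESeq2 called 0 in the last 4 lists. In the list of cholangiocyte markers Onecut1 was the 1 of 11 that passed. Several of these lists leaned to the female side as well, though not in every omission of 1 library. Medians were -0.26 for cholangiocyte (10 of 11 negative), -0.16 for endothelial (11 of 15), -0.40 for red blood cell and -0.15 for stellate markers. The hepatocyte and neural medians were 0.07 and 0.66. With library size alone these negative medians turned positive. Without female replicate 2 the cholangiocyte, red blood cell and stellate medians were 0.17, 0.53 and 0.09. Without male replicate 2 the stellate median was 0.05. The Kupffer, class II, monocyte and B cell medians stayed negative in each omission of 1 control library. Tat, the tyrosine aminotransferase of mature hepatocytes, had 391, 394 and 314 CPM in males and 292, 175 and 124 CPM in females (adjusted p = 0.211). Among 18 clock genes Bhlhe41, a repressor of the clock, was the 1 that passed, higher in males (6.63, 9.31 and 5.70 against 2.67, 2.84 and 1.12 CPM, 1.71 ± 0.34), in 1 of 6 omissions (adjusted p = 0.142 without male replicate 2). Among 18 immediate early and heat shock genes edgeR called 0 (3 unadjusted, 0 by DESeq2).

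Neither Ahr nor its 2 classic targets passed between the sexes. Ahr had 13.04, 21.2 and 16.98 CPM in males and 12.3, 16.6 and 10.4 CPM in females (0.39 ± 0.23, edgeR adjusted p = 0.521), with overlapping groups. Cyp1a2, the main target of the receptor in liver, had 990.1, 785 and 623 against 566, 380.0 and 541 CPM (0.69 ± 0.27, adjusted p = 0.296), and Cyp1a1 1.283, 1.11 and 1.18 against 0.927, 0.917 and 0.976 CPM (0.34 ± 0.40, adjusted p = 0.782). In both targets all males lay above all females, as in 10.2% of all autosomal genes tested. Not passing does not show that their levels are equal.

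The same contrast was read in the Ahr-null mice, which share no library with the controls. In the unscaled totals Ahr itself had 13.1 to 36.5 CPM in the Ahr-null libraries and 10.6 to 23.3 CPM in the controls, but counts over the whole gene do not show whether a deleted part is missing. Its target Cyp1a2 had 46.2 to 205 CPM against 261 to 931 CPM and Cyp1a1 0.150 to 0.512 CPM against 0.631 to 1.55 CPM, so both targets separated the genotypes as labelled. Fitted alone, the 6 Ahr-null libraries gave 0 calls among 12949 autosomal genes with edgeR (0.00%), 631 at an unadjusted p under 0.05 (4.87%) and 92 with DESeq2 (0.713%). Without Ahr-null female replicate 1, whose neural markers summed to 913 CPM, 10 genes passed (0.0755%). Of the 177 genes called in controls, 166 could be tested there, and 147 had the same sign (88.6%), against 55.9% of the 12102 autosomal genes tested in both. This was 95 of 106 genes higher in control males and 52 of 60 higher in control females. The median log2 fold change of the first went from 1.78 in controls to 1.33 in Ahr-null mice and of the second from -1.74 to -0.59. Genes chosen for passing in controls tend to give smaller values in any other samples, so these medians do not compare the genotypes.

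Single genes showed the range. Cyp2d9 (4.54 in controls, 4.34 ± 0.48 in Ahr-null mice), Elovl3 (4.74 and 7.57 ± 0.75) and Slc22a26 (-6.28 and -6.31 ± 0.80) were close to or beyond their control values. Cyp4a12a (6.30 and 3.63 ± 0.60), Mup20 (5.12 and 2.43 ± 0.60) and Sult2a1 (-7.21 and -3.46 ± 0.67) kept the sign at a smaller size. Cib3 (4.09 and -0.60 ± 0.68) and Onecut1 (-2.43 and 0.46 ± 0.63) had the opposite sign. None of these 8 passed in the Ahr-null mice.

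**Figure D5:**
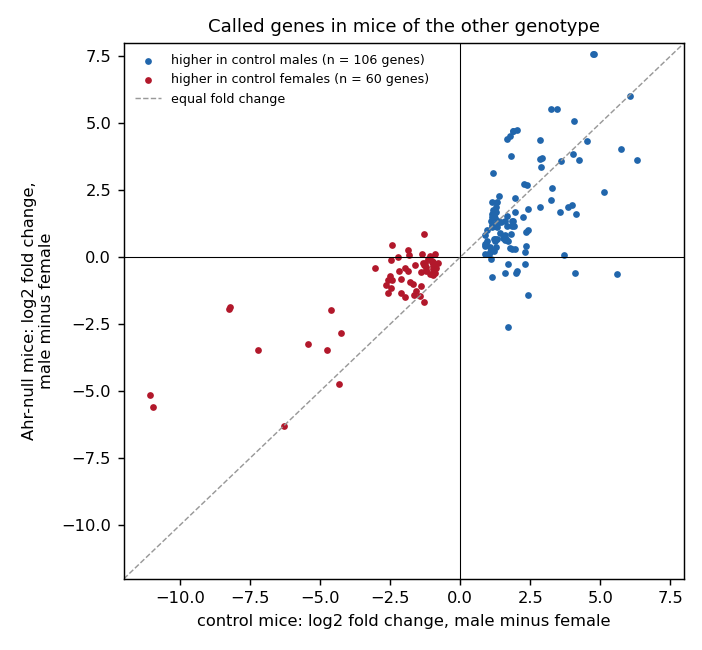
Log2 fold change, male minus female, in control mice (x axis) and in Ahr-null mice (y axis) for the 166 genes called in controls and tested in both, with the line of equal fold change dashed. Of the blue points (106 genes higher in control males) 95 lie above 0 on the y axis, and of the red points (60 genes higher in control females) 52 lie below 0.

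Only the interaction of sex and genotype tests whether a sex difference differs between the genotypes. Over all 12 libraries it called 1 of 13210 autosomal genes with edgeR (0.00757%), with 600 at an unadjusted p under 0.05 (4.54%) and 20 by DESeq2. The gene was Sult3a1. Scaled over 12 libraries, control females had 89.4, 54.8 and 73.6 CPM and control males 0, 0.0775 and 0.382 CPM. Ahr-null males had 0.158, 0.233 and 0.118 CPM, and Ahr-null females 0, 0 and 0.1105 CPM. The 3 control females alone were high, and the other 9 libraries overlapped near 0. The log2 fold change, male minus female, was lower by 10.39 ± 1.24 in controls than in Ahr-null mice (adjusted p = 0.0202). The call rested on the spread of few libraries. It was lost in 9 of the 12 omissions of 1 library, with adjusted p values of 0.0656 to 0.464, the highest without Ahr-null male replicate 1, and held without control male replicate 1 (0.0180), control male replicate 3 (0.00759) or Ahr-null female replicate 1 (0.00603).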

How the data were processed

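RNA-seq of livers from 12 mice was used, 6 of them for the comparison. Per the submitters' processing notes, the authors' tools were DESeq2 1.28.1, STAR 2.7.8, FastQC 0.11.8 and Trim Galore 0.6.5, and the genome build was GRCm38. The counting tool and strand setting were not given in the sources used here. The authors deposited raw read counts per gene, and a table of log2 variance-stabilised values, which per the file headers holds the same genes and libraries. Every column was matched to a sample by its title.

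From the counts, genes passing edgeR's filterByExpr were scaled by TMM and fitted with edgeR 4.0.16 (glmQLFit, robust; glmQLFTest, two-sided; R 4.3.3), with 1 mean per sex over the 6 control libraries. All 12578 genes that passed, sex chromosomes included, entered the Benjamini-Hochberg adjustment, and chromosomes 1 to 19 were then read. The common dispersion was 0.0543. The interaction was fitted over 12 libraries, and the 6 Ahr-null libraries were also fitted alone. Adjusted p values in the text come from these edgeR fits unless another tool is named. List counts at an unadjusted p under 0.05 or by DESeq2 stand without the share of all genes, so they do not set a list apart. On simulated counts with 200 changed genes of 12420, the test recovered 40% of 2-fold and 89% of 4-fold changes and called 7 unchanged genes. Replicates of 1 sex differed beyond counting noise in every pair.

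The members and the 46 gene lists (934 genes tested) were chosen with earlier results of these data known, so a list's direction is not independent evidence. The text names the 12 largest differences in each direction among called genes whose mean log2 CPM is 1 or more, with groups that do not overlap and an established symbol, up to 4 members of each list by p, and the growth hormone list. A gene among these, with the counts of 2 lists it is in, is not reported here. Genes named outside this rule were chosen after their values were seen. Alternatives were other scalings, filters and thresholds, DESeq2 1.42.0, limma 3.58.1 (voom, and the deposited log2 values) and each library left out. Leaving out the Ahr-null libraries in turn was added after seeing the data. Intervals cover counting error only. Shared sequence is the percentage of a gene's 50-base words found in transcripts of other genes.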

Additional observations from a re-analysis of the deposited data

Results flagged for a closer look

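The sex difference of Sult3a1 was not the same in the 2 genotypes. The log2 fold change, male minus female, of the controls less that of the Ahr-null mice came to -10.39 ± 1.24 (edgeR interaction, adjusted p = 0.0202, 1 of 13210 autosomal genes). The 3 control females stood at 54.8 to 89.4 CPM and the other 9 libraries at or under 0.382 CPM. With DESeq2 the difference was -10.63, and over the omissions of 1 library it ranged from -13.03 to -9.83 while the adjusted p rose as far as 0.464.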

How the results depend on the processing

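No called gene changed direction under any of 21 alternatives; 32 of the 177 passed all of them and 63 passed each omission of 1 control library. The total was 387 with DESeq2 (198 higher in males, 189 in females), which includes all 177. It was 42 with all 12 libraries in the fit (22 and 20), 94 with Ahr-null female replicate 1 left out of that fit (60 and 34) and 74 at an adjusted p under 0.01 (49 and 25). Library size alone gave 179 and 39. Leaving out 1 control library gave 77 to 185 in total, 44 to 121 higher in males and 33 to 64 higher in females. The lowest counts came without female replicate 1. The interaction count of 1 was 20 with DESeq2, 3 with library size alone, 2 without Ahr-null female replicate 1, 4 without it and control male replicate 1, and 0 to 2 over single omissions. The count of called genes with the same sign in Ahr-null mice, 147 in the main fit, was 138 to 147 over omissions of an Ahr-null library. The genes that could be tested changed with the omission, from 166 in the main fit to 169 without Ahr-null female replicate 1, where 144 had the same sign. List counts moved by over 1.5 times in 152 of 966 cases, and 16 of 46 list medians, each negative with TMM, turned positive with library size alone. The cause of these changes was not tested.

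With 3 libraries a sex, an exact permutation test of 1 gene cannot go below p = 0.1, so calls rest on edgeR's shared spread. The self-test recovered 40% of 2-fold changes, so a 2-fold difference could be missed at this size. At most 0.0722 CPM of the unscaled total separates 1 count from 0. Strand and counting tool are not known, so reads of near-identical and of overlapping genes cannot be told apart. Of the 177 genes, 48 share over 10% and 19 over 50% of their 50-base words with other genes.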

Other observations

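Genes of protein folding and quality control in the endoplasmic reticulum lay mostly on the male side. The group was put together after its values were seen, so its counts follow from that choice. It also holds the stress response genes Trib3, Atf4 and Ddit3 and the asparagine synthetase gene Asns. Asns had the largest fold change of the group and did not pass. Of these 29 genes 9 passed, all higher in males, beside 0.927% of all autosomal genes tested. A positive fold change was seen in 26, and the median was 0.65, against 0.02 for all autosomal genes. Manf, a secreted factor of the unfolded protein response, had 43.9, 35.3 and 26.98 CPM in males and 13.2, 10.5 and 13.04 CPM in females (1.52 ± 0.21, edgeR adjusted p = 0.00291). Herpud1, part of the degradation machinery of the same compartment, had 148, 162 and 109.7 against 61.3, 34.1 and 57.3 CPM (1.46 ± 0.26), and Creld2 60.4, 41.97 and 38.3 against 21.3, 21 and 19.7 CPM (1.18 ± 0.20). Sdf2l1, Fkbp11, Syvn1, Hyou1, Slc35b1 and the stress kinase homologue Trib3 also passed. Hspa5, the main chaperone BiP, had 295, 250.1 and 180.1 against 122, 141 and 116 CPM and did not pass (adjusted p = 0.0804), Hsp90b1 had 622, 469 and 433 against 402, 752 and 425 CPM, and Canx, at -0.89 ± 0.30, lay on the female side without passing. Manf passed in 6 of 6 omissions of 1 library, Herpud1 in 4 (adjusted p = 0.0664 without male replicate 2) and Slc35b1 in 1 (0.164 without female replicate 1). Sdf2l1 and Trib3 passed in 6, Hyou1 in 2 (0.121), and Creld2, Fkbp11 and Syvn1 in 4 each (0.0822, 0.0895 and 0.0927), the last 4 with these values without female replicate 1.

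Some serpin genes on chromosome 12 differed, in both directions. Serpina1e, of the alpha-1-antitrypsin cluster, had 591, 457 and 576 CPM in males and 69.02, 84.2 and 72.2 CPM in females (2.85 ± 0.23, edgeR adjusted p = 3.48e-05). Of its words 34.6% are shared, mainly with Serpina1b. Of the same cluster, Serpina1a (0.07 ± 0.23, adjusted p = 0.931) and Serpina1c (0.60 ± 0.23, adjusted p = 0.300) did not pass. Serpina12, the adipokine vaspin, had 31.3, 40.3 and 31.4 against 6.55, 5.04 and 7.67 CPM (2.41 ± 0.21). Serpina6, which encodes the corticosteroid-binding globulin of plasma, was higher in females with 151, 168 and 122 against 49.5, 70.6 and 61.96 CPM (-1.275 ± 0.22, adjusted p = 0.0114, 0.0706 without female replicate 1). Nt5e, the ectoenzyme CD73 that makes adenosine, had 5.51, 9.91 and 6.76 CPM in females and 1.14, 1.38 and 1.18 CPM in males (-2.57 ± 0.30). Ttc39c had 270.4, 339 and 332 CPM in males and 39.6, 39.9 and 51.9 CPM in females (2.84 ± 0.23), and the laminin chain gene Lama3 7.199, 7.08 and 6.45 against 0.464, 0.642 and 1.05 CPM (3.26 ± 0.33). Serpina1e is a member of the male-biased list, and Serpina1a and Serpina1c of the hepatocyte list. The other genes are in no list and were chosen after their values were seen. By chromosome, calls ranged from 0.489% of tested genes on chromosome 11 to 3.66% on chromosome 19 (17 of 465), and chromosome 4, which holds the Mup and Cyp4a clusters, had 22 calls among 814 genes (19 were higher in males).

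Some genes that passed on the male side are known from neurons, and male replicate 1, the library with neural transcripts, was the highest for several. Bdnf had 5.56, 3.28 and 3.71 CPM in males and 0.927, 1.38 and 0.837 CPM in females, Ncam2 2.71, 2.89 and 2.36 against 0.695, 0.367 and 0.488 CPM, Cspg5 5.20, 0.984 and 2.42 against 0.232, 0.183 and 0.209 CPM and Hcrtr2 3.64, 1.38 and 1.24 against 0.0579, 0 and 0 CPM. All 4 passed without male replicate 1, where the log2 fold changes were 1.77 for Bdnf (adjusted p = 0.0233), 2.29 for Ncam2 (0.0150), 2.99 for Cspg5 (0.0220) and 5.38 for Hcrtr2 (0.00481). Over all 6 omissions Bdnf passed in 4 (highest adjusted p = 0.104 without female replicate 1), Ncam2 in 3 (0.0666 without male replicate 2), Cspg5 in 3 (0.114 without female replicate 1) and Hcrtr2 in 5 (0.0544 without female replicate 1).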
